A study of Arabidopsis thaliana with 45 samples.

Results

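A set of 544 windows of 200 bp in Arabidopsis gene bodies differed in CG methylation between groups of plants while staying methylated in every group for which a level was listed. They were selected on the measured methylation levels, as the windows in CG context that the deposited tables place in a gene body and outside transposable elements (TEs), and in which every listed level of any group was at least 0.1 on a scale of 0 to 1. They made up 23.3% of the 2331 CG windows listed in any table and 56.6% of the 961 listed gene-body windows outside TEs. The other 417 gene-body windows fell under 0.1 in at least 1 listed group. For 412 of the 544 windows a level was listed in only 2 groups, so nothing is known of the other groups there. Because the levels chose the windows, all values below are descriptions and no test was made on them.

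The samples were rosettes of Columbia plants from 3 generations, analysed by whole genome bisulfite sequencing with 5 biological replicates in each of 9 groups and 45 samples in all. P0 plants grew from a seed stock without any earlier irradiation, S1 plants from seeds of P0 plants of the same treatment, and S2 plants from seeds of S1 plants of the same treatment. In each generation plants stayed under natural background radiation (γ0, kept in a separate chamber) or received gamma radiation from a caesium source for 14 days at 30 mGy/h (γ30) or 110 mGy/h (γ110). Chamber and dose rate therefore cannot be told apart in a comparison with γ0. No level was listed for P0γ0 or P0γ110 in any of the windows. The tables give 1 methylation level for each group of 5 samples, without the values of single plants and without coverage, so neither the spread between plants nor the depth behind a level is known here, and no error can be put on a level or a difference.

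CG methylation in plants is copied onto the new DNA strand at each replication by the methyltransferase MET1, which acts on hemimethylated CG sites. In gene bodies it sits mainly on exons of long, steadily expressed genes, away from the start and the end of transcription, and generally without methylation in the other sequence contexts. Single CG sites in such genes are known to gain and lose methylation between generations more often than sites in silenced TEs do.

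The windows that carried the extreme values are shown first, as the plus strand of the RefSeq sequence of TAIR10.1, with the CG sites in capitals. They are the window with the largest gain (ARC3, a plastid division protein, chr1:28166201-28166400), the window with the largest loss (SBE3, named after a starch branching enzyme, chr3:7128001-7128200), both windows listed in 4 comparisons (SWI3C, a core subunit of SWI/SNF chromatin remodelling complexes, chr1:7621801-7622000, and NUA, a protein of the nuclear pore basket, chr1:29822001-29822200), and a window with 11 CG sites, the highest number in the set (listed under ATOBGM, in a gene for an Obg-type GTP-binding protein, chr1:2342401-2342600). The capital C that ends the ATOBGM window belongs to a CG whose G lies in the next window.
ARC3: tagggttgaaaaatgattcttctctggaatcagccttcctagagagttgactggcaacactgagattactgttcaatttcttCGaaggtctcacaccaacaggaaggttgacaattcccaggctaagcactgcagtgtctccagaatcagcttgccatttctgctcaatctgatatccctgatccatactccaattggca
SBE3: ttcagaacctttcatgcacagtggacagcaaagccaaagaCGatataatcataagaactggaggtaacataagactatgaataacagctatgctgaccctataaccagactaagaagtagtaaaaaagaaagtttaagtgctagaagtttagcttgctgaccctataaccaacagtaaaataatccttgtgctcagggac
SWI3C: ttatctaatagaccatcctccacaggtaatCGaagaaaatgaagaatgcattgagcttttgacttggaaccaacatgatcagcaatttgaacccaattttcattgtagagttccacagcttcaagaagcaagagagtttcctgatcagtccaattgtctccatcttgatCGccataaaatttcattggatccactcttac
NUA: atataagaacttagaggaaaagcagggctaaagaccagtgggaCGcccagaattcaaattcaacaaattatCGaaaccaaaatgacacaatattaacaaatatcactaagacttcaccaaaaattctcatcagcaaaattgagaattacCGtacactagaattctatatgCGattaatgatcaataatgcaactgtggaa
ATOBGM: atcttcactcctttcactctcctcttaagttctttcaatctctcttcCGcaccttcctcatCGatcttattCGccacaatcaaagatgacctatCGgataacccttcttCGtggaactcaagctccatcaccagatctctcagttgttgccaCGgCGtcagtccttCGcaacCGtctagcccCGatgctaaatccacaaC

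The ARC3 and SBE3 windows each held 1 CG site, so the level of the window is the level of that site. The level of the ARC3 window was 0.925 in S2γ30, against 0.162 in S1γ30. The SBE3 window had a level of 0.165 in S2γ30, against 0.886 in S1γ30. The SWI3C window held 2 CG sites and the NUA window 4, and their levels are given below with the other windows that were listed several times.

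The windows lay in the middle and towards the end of their genes. Of the 544 windows, 537 were assigned to a protein-coding gene of the RefSeq annotation, in 497 different genes, and the others to annotated genes of another type. With each gene divided into 5 equal parts, 4.28% of the windows were centred in the first part, 18.2% in the second, 26.3% in the third, 33.7% in the fourth and 17.5% in the last. Only 14 windows were centred within 500 bp of the gene start and 58 within 500 bp of the gene end. Among the 412 windows in protein-coding genes that fell under 0.1 in some group, 8.01% were in the first part and 25.2% in the last.

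**Figure D1:**
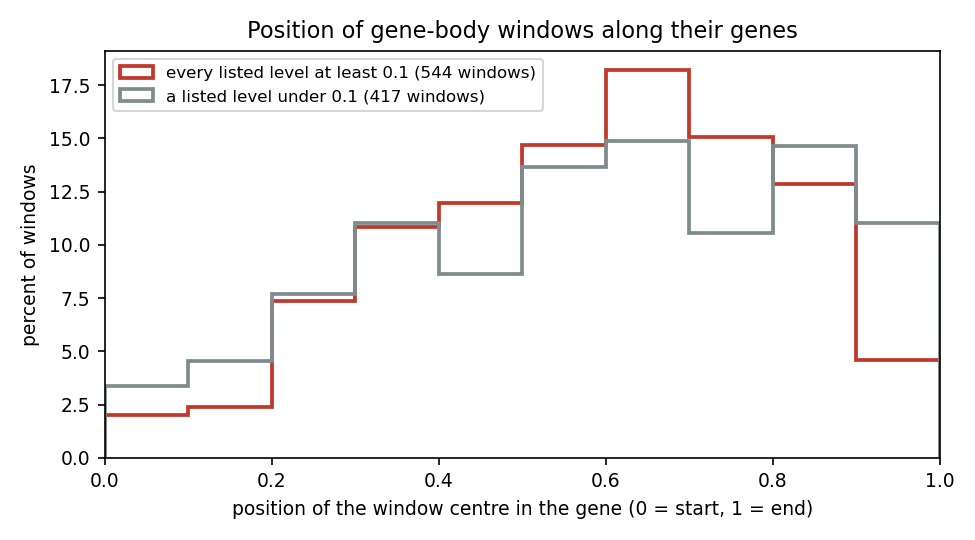
Share of windows (percent) by position of the window centre along the annotated gene, in 10 bins from start to end, for the windows with every listed level at least 0.1 (red) and for the gene-body windows with a listed level under 0.1 (grey). The red outline peaks past the middle of the gene and is low near its start, where bins up to a position of 0.2 together held 4.28% of the windows in protein-coding genes.

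Coding sequence of the assigned gene was overlapped by 499 of the 537 windows (92.9%), intron sequence by 370 (68.9%) and untranslated sequence by 49 (9.12%), since many windows held an exon and part of an intron. The windows fell entirely in coding sequence in 124 cases and entirely in an intron in 26. The genes were long, with a median of 3798 bp and 10 exons, against 3217 bp and 8 exons for the genes of the windows that fell under 0.1 and 2078 bp and 4 exons for all 27444 protein-coding genes. A longer gene offers more windows to be listed, and this was not corrected for. All 5 chromosomes carried windows, 134 on chromosome 1, 99 on chromosome 2, 77 on chromosome 3, 105 on chromosome 4 and 129 on chromosome 5.

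The class "gene body" in the tables did not cover genes of both strands alike. Of the 544 windows, 523 (96.1%) overlapped only genes on the minus strand, 10 only genes on the plus strand, 9 genes of both strands and 2 no protein-coding gene, whereas 49.8% of all protein-coding genes are on the minus strand. Listed windows outside TEs that overlapped only plus-strand genes mostly carried another class, with 475 of the 622 windows listed as promoter and 436 of the 495 windows listed with neither class. With gene bodies taken from the annotation in place of the listed class, 1063 windows would have met the rule. The windows described here are thus a sample of such windows that leaves out most plus-strand genes.

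Nearly all windows came from comparisons that included S2γ30 or S1γ30. The comparison of S2γ30 with S1γ30 listed 434 of them, S2γ30 with S2γ0 153, S2γ30 with P0γ30 40, S1γ30 with P0γ30 39 and S1γ30 with S1γ0 21. Of the comparisons with γ110, S1γ110 with S1γ30 listed 11, S2γ110 with S1γ110 3, S2γ110 with S2γ30 1 and S2γ110 with S2γ0 1. The listed CG windows of all classes were spread in a similar way. In the same order they numbered 1844, 771, 272, 184 and 129 without γ110, and 37, 14, 15 and 5 with γ110. The counts per comparison are therefore not read as a trait of the set. These comparisons share groups, so their windows are not independent sets, and a window can be absent from a table because it was not covered or did not pass the authors' thresholds.

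Between S1γ30 and S2γ30 methylation moved in both directions in nearly equal numbers of windows. Of the 434 windows, 228 (52.5%) were higher and 206 lower in S2γ30, where 56% of all 1844 CG windows listed for this comparison were higher in S2γ30. As the rule used the levels of this comparison, nothing is read from these shares. In the 228 windows that gained methylation the median level was 0.722 in S2γ30, against 0.415 in S1γ30. In the 206 windows that lost methylation the median level was 0.373 in S2γ30, against 0.666 in S1γ30. The median size of the difference was 0.273 for gains and 0.264 for losses, and it was above 0.5 in 15 of the 434 windows.

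The largest gains in S2γ30 relative to S1γ30 were in ARC3, in PHS2, an alpha-glucan phosphorylase of starch and maltose metabolism, and in AT3G09850, a gene for a G-patch domain protein. The PHS2 window (chr3:17304401-17304600, 1 CG site) had a level of 0.887 in S2γ30, against 0.206 in S1γ30. The AT3G09850 window (chr3:3023801-3024000, 2 CG sites) had 0.899 in S2γ30, against 0.239 in S1γ30. After SBE3, the largest losses were in ARF7, an auxin response factor, and in EAF1B, a helicase/SANT-associated protein. The ARF7 window (chr5:7020601-7020800, 4 CG sites) fell to 0.209 in S2γ30, against 0.795 in S1γ30 and 0.654 in S2γ0. The EAF1B window (chr3:9078401-9078600, 2 CG sites) fell to 0.412 in S2γ30, against 0.935 in S1γ30.

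Against the unirradiated plants of the same generation, S2γ30 was higher in 84 windows (54.9%) and lower in 69, where 59.4% of the 771 listed CG windows were higher in S2γ30. The median level of the gained windows was 0.850 in S2γ30 and 0.453 in S2γ0, and that of the lost windows was 0.438 in S2γ30 and 0.718 in S2γ0. GLO3, a glycolate oxidase family gene, had the largest gain, with 0.861 in S2γ30 against 0.109 in S2γ0 (chr3:4690801-4691000, 1 CG site). The next were a window of AGO4, described below, and AT5G65005, annotated as a ribonuclease H-like protein, whose window of 6 CG sites (chr5:25967801-25968000) had 0.926 in S2γ30 against 0.186 in S2γ0. AT5G65005 was the only one of the named windows with more than 5 CG sites and a difference above 0.5. The largest losses in this comparison were in ARF19, with 0.382 in S2γ30 against 0.862 in S2γ0 (chr1:6631601-6631800, 4 CG sites), in EMB2756, and in AT2G18465, which encodes a DnaJ-domain chaperone, with 0.369 in S2γ30 against 0.833 in S2γ0. ARF19 is the closest relative of ARF7, and both act in lateral root formation and tropisms.

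**Figure D2:**
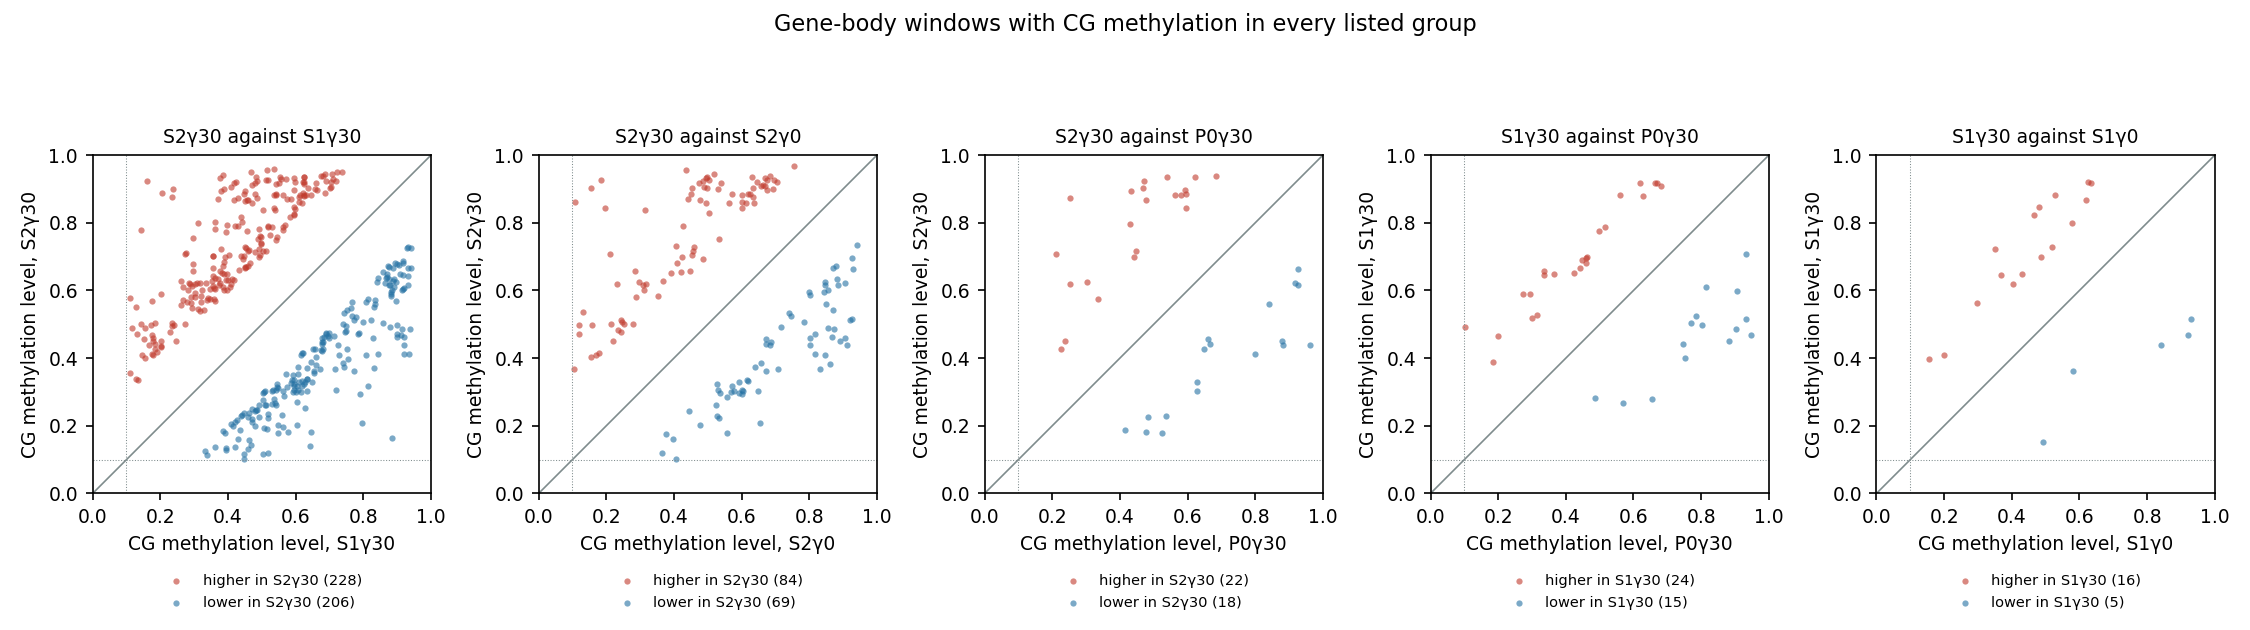
CG methylation level of each window in S2γ30 or S1γ30 (vertical axis, 0 to 1) against its level in the other group of the comparison (horizontal axis, 0 to 1), for the 5 comparisons with the most windows. Red points were higher and blue points lower in the group on the vertical axis, the diagonal marks equal levels, dotted lines mark 0.1, and the empty band along the diagonal is the smallest listed difference of 0.2. Gained windows between S1γ30 and S2γ30 had a median of 0.722 in S2γ30 and 0.415 in S1γ30.

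The 40 windows listed for S2γ30 and P0γ30 had the largest median difference among the 5 comparisons with the most windows, 0.306. S2γ30 was higher in 22 of them (55%) and lower in 18, where 62.5% of the 272 listed CG windows were higher in S2γ30. With gene bodies taken from the annotation 44 were higher and 46 lower. WAKL20, a wall-associated receptor-like kinase, had the largest gain. The level of its window (chr5:407601-407800, 2 CG sites) was 0.254 in P0γ30, 0.429 in S1γ30 and 0.872 in S2γ30. Its P0γ30 and S1γ30 levels differed by 0.175, under the listed minimum of 0.2, so no stepwise rise over the generations is read from it. CNGC1, a cyclic nucleotide gated ion channel, had 0.707 in S2γ30 and 0.211 in P0γ30, and Tudor1, a Tudor nuclease that binds RNA under stress, had 0.894 in S2γ30 and 0.433 in P0γ30. Levels were lower in S2γ30 in EMB2756 (0.438, against 0.962 in P0γ30), in SFH13, a phosphatidylinositol transfer protein (0.440, against 0.881), and in CBSCBSPB1 (0.451, against 0.880).

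S1γ30 was higher than P0γ30 in 24 of 39 windows (61.5%) and lower in 15, where 49.5% of the 184 listed CG windows were higher in S1γ30. Gains in this comparison were smaller than its losses, with a median of 0.253 over the 24 gains and 0.307 over the 15 losses. Among windows with a difference above 0.3 the balance turned, with 5 higher and 10 lower in S1γ30. The largest gains were in AT1G70380, an F-box gene (0.493 in S1γ30, against 0.102 in P0γ30), VDAC5, a porin-type channel (0.659, against 0.334), and CCR4-4, named after a deadenylase (0.882, against 0.559). The largest losses were in SWI3C, in AT2G26810, annotated as a putative methyltransferase (0.450 in S1γ30, against 0.881 in P0γ30), and in MAG2L, of a family that acts in vesicle tethering (0.487, against 0.904).

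S1γ30 was higher than S1γ0 in 16 of 21 windows (76.2%) and lower in 5, where 51.2% of the 129 listed CG windows were higher in S1γ30. Among windows with a difference above 0.3 the majority was gone, with 4 higher and 4 lower. ABF2, a bZIP transcription factor of the abscisic acid response, had the largest gain, with 0.721 in S1γ30 against 0.352 in S1γ0. It was followed by PLDBETA2, a phospholipase D (0.848, against 0.480), and SBT2.5, a subtilisin-like protease (0.824, against 0.464). The largest losses were in SWI3C, in AT2G15860 (0.517 in S1γ30, against 0.929 in S1γ0) and in XI-F, a myosin (0.438, against 0.841).

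The γ110 groups had few windows. S1γ110 was higher than S1γ30 in 6 of 11 windows and lower in 5, where 54.1% of the 37 listed CG windows were higher in S1γ110. Among the gains was SRF3, a leucine-rich repeat receptor kinase, with 0.938 in S1γ110 and 0.536 in S1γ30. Among the losses were a window in the WNK8 kinase gene, listed under CPuORF58, with 0.413 in S1γ110 and 0.666 in S1γ30, and AT5G23520 with 0.143 in S1γ110 and 0.394 in S1γ30.

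All 3 windows listed for S2γ110 and S1γ110 were lower in S2γ110, where 42.9% of the 14 listed CG windows were higher. They were in AT5G59900, in AT4G08630 (0.537 in S2γ110, against 0.803 in S1γ110) and in AHK4, a cytokinin receptor (0.671, against 0.892). AHL11, a DNA-binding protein with an AT-hook, had 0.366 in S2γ110 and 0.672 in S2γ30, and was the single window of that comparison, in which 46.7% of the 15 listed CG windows were higher in S2γ110. HRD1B, a ubiquitin ligase of protein degradation at the endoplasmic reticulum, had 0.647 in S2γ110 and 0.881 in S2γ0, and was likewise the single window, where 20% of the 5 listed CG windows were higher in S2γ110.

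The size of the differences followed the number of CG sites. The windows held 1 to 11 CG sites with a median of 4, and 5 windows held a single site, 73 held 2, 153 held 3 and 142 held 4. The largest difference of a window had a median of 0.746 with 1 site, 0.428 with 2, 0.287 with 3 and 0.248 with 4. Multiplied by the number of CG sites, these are 0.746, 0.856, 0.860 and 0.994, where 1 would stand for a complete change at 1 site if all sites of a window were read equally often. The product was between 0.75 and 1.25 in 53 of 73 windows with 2 sites (72.6%) and in 115 of 153 with 3 (75.2%). With 4 sites it was in this range in 120 of 142 windows, but there the listed minimum of 0.2 already puts the product at 0.8 or more. With 5 or more sites the listed minimum of 0.2 fixes the product at 1 or more, and the median difference stayed between 0.233 and 0.312 for every number of sites from 5 to 11.

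**Figure D3:**
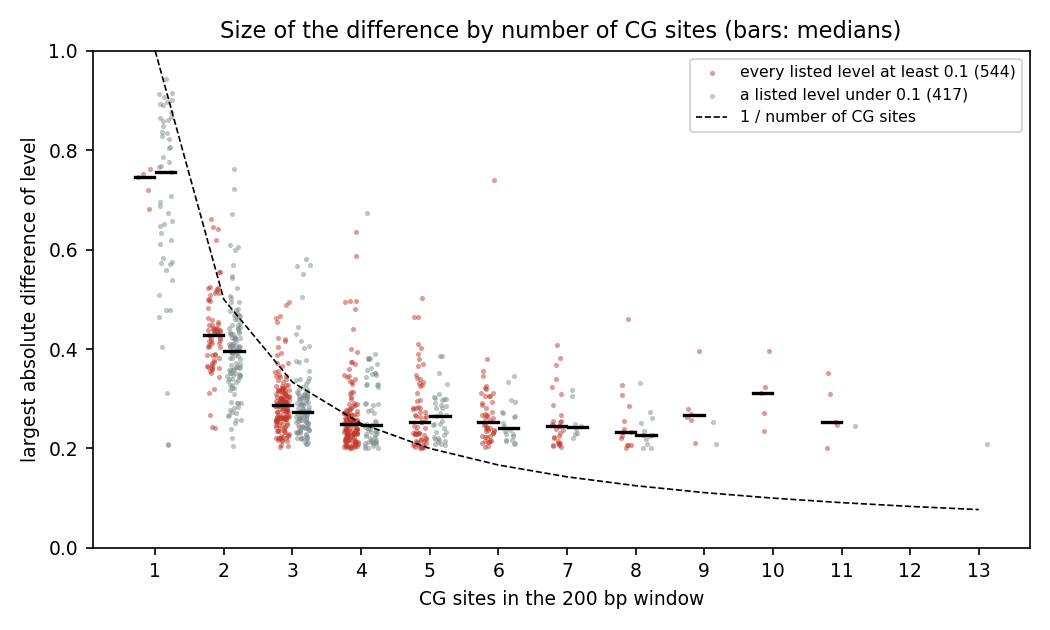
Largest absolute difference of methylation level of each window (vertical axis, 0 to 1) by number of CG sites in the window (horizontal axis), for the 544 windows with every listed level at least 0.1 (red, left) and the 417 gene-body windows with a listed level under 0.1 (grey, right). Black bars are medians for numbers of sites with 3 or more windows, and the dashed line is 1 divided by the number of sites. The red medians fall to 0.248 at 4 sites, against 0.746 at 1 site, and change little after that.

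The moves between levels were also described in steps that depended on the number of sites. To count them, the range up to 0.9, near the top of the measured levels and chosen after they were seen, was divided by the number of CG sites, which gives steps of 0.45 for 2 sites, 0.3 for 3 and 0.225 for 4, and each level was assigned to the nearest step. Of the 368 windows with 2 to 4 sites, 340 (92.4%) moved by 1 step, 23 by 2, 2 by 3 and 3 by none. A move by 1 step was seen in 71 of 73 windows with 2 sites, 143 of 153 with 3 and 126 of 142 with 4. With 2 sites a move by 2 steps has to start from a level under 0.225. The rule that chose the windows left out most such levels, so the count for 2 sites was largely set by that rule. With 3 and 4 sites a move by 2 steps could also start from a higher step. Moves by 2 steps were seen in 8 windows with 3 sites and in 14 with 4. The median differences of 0.287 with 3 sites and 0.248 with 4 are close to 1 step. These counts therefore largely restate the size of the differences and do not show that levels stand in steps. With 2 sites, 66 of 73 windows had medians of 0.457 for the lower and 0.901 for the higher level. With 3 sites, 79 of 153 windows had medians of 0.306 and 0.601, and 62 had medians of 0.612 and 0.884. Of the 142 windows with 4 sites, 37 had medians of 0.218 and 0.468, 52 of 0.443 and 0.686, and 37 of 0.670 and 0.911. These medians were taken within the assigned steps, so they would lie near the steps even for evenly spread levels. ARF7 was 1 of the 2 windows that moved by 3 steps. The listed minimum of 0.2 is close to 1 step in windows with 4 sites, so smaller moves than 1 step could hardly be listed there. With 2 and 3 sites the same minimum leaves out the smaller moves within a step, so the low count of windows that moved by none is not read as a result.

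**Figure D4:**
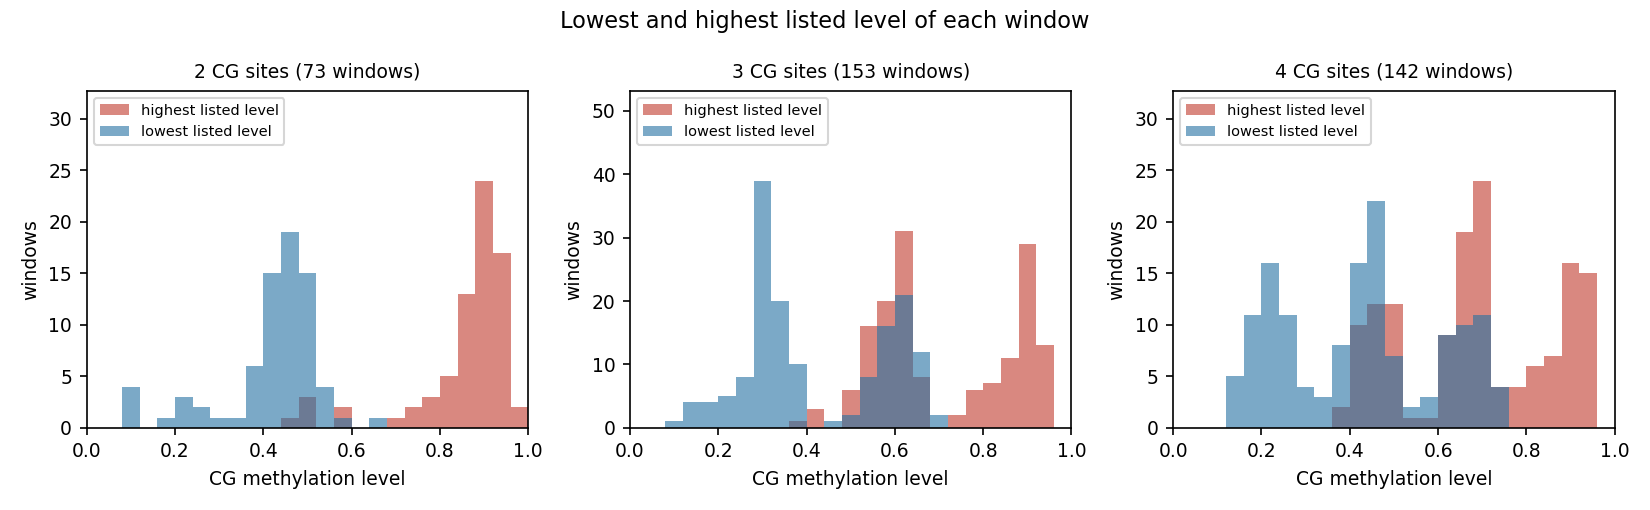
Number of windows (vertical axis) by CG methylation level (horizontal axis, 0 to 1, bins of 0.04), with the lowest listed level of each window in blue and the highest in red, for windows with 2, 3 and 4 CG sites. In the comparison with the largest difference, windows with 2 sites had quartiles of 0.408 and 0.481 for the lower level. For the higher level they were 0.843 and 0.920. The quartiles were wider with 4 sites, 0.248 and 0.583 for the lower and 0.516 and 0.855 for the higher level.

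The gene-body windows that fell under 0.1 in some group had fewer CG sites, with a median of 3, and 49 of these 417 windows (11.8%) held a single site, against 5 of the 544 (0.919%). Their differences by number of sites were alike, with medians of 0.756, 0.397, 0.273 and 0.246 for 1 to 4 sites. In these windows the higher level had a median of 0.418 with 2 sites, 0.294 with 3 and 0.264 with 4. All windows of the genome in protein-coding genes that hold a CG had a median of 4 sites. The limit of 0.1 shapes the contrast in CG number. A near-complete change in a window with a single site puts 1 group near 0 and so under the limit.

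Of the 417 gene-body windows under the limit of 0.1, 363 had their lowest level under 0.05 and 54 between 0.05 and 0.1. Just inside it were AT2G45520 (0.102 in S2γ30, against 0.449 in S1γ30), AT1G70380 (0.493 in S1γ30, against 0.102 in P0γ30) and AT3G17800 (0.369 in S2γ30, against 0.106 in S2γ0). Just outside it were AT1G04390 (0.578 in S2γ30, against 0.0989 in S1γ30), AT4G21170 (0.469, against 0.0983) and another window of XI-F (0.449, against 0.0975). Of the 544 windows, 70 had their lowest level under 0.2 and 165 at 0.5 or above. The windows whose lower level was highest were in AT5G11700 (0.969 in S2γ30, against 0.754 in S2γ0), in ABO5, a pentatricopeptide repeat protein (0.950 in S2γ30, against 0.738 in S1γ30), and in CTR1, the kinase that represses ethylene signalling (0.735 in S2γ30, against 0.942 in S2γ0).

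Of the 544 windows, 132 were listed in 2 or more comparisons and 25 in 3 or 4. In all but 3 of the 132, every comparison that listed the window shared 1 group, so these entries repeat the level of that group against several others. The shared group was S2γ30 in 94 windows, S1γ30 in 34 and P0γ30 in 1. In these 129 windows the levels of the other groups spanned at most 0.187, with a median span of 0.0295. The listing can limit this span directly in 45 of them, where some of the other groups were also compared with each other. A larger difference between those groups would have been listed if it passed the authors' thresholds. In the 84 windows whose other groups were not compared with each other, the median span was 0.0262 and the largest 0.187. These windows were selected too, since every other listed group had to differ from the shared group by at least 0.2. A group nearer to the shared group would not have been listed, so nothing is read from the small spans.

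In the SWI3C window the levels were 0.947 in P0γ30, 0.922 in S1γ0, 0.468 in S1γ30, 0.924 in S1γ110 and 0.950 in S2γ30. Thus S1γ30 stood apart from P0γ30, from both other S1 groups and from S2γ30. The window is in coding sequence and holds the 2 CG sites shown above. In the NUA window, which lies in an intron, the levels were 0.461 in P0γ30, 0.488 in S1γ0, 0.698 in S1γ30, 0.451 in S1γ110 and 0.474 in S2γ30. Again S1γ30 was the group with a different level, here a higher one. The S2γ30 plants, which are one generation further down the same dose rate, had levels near those of P0γ30 in both windows.

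**Figure D5:**
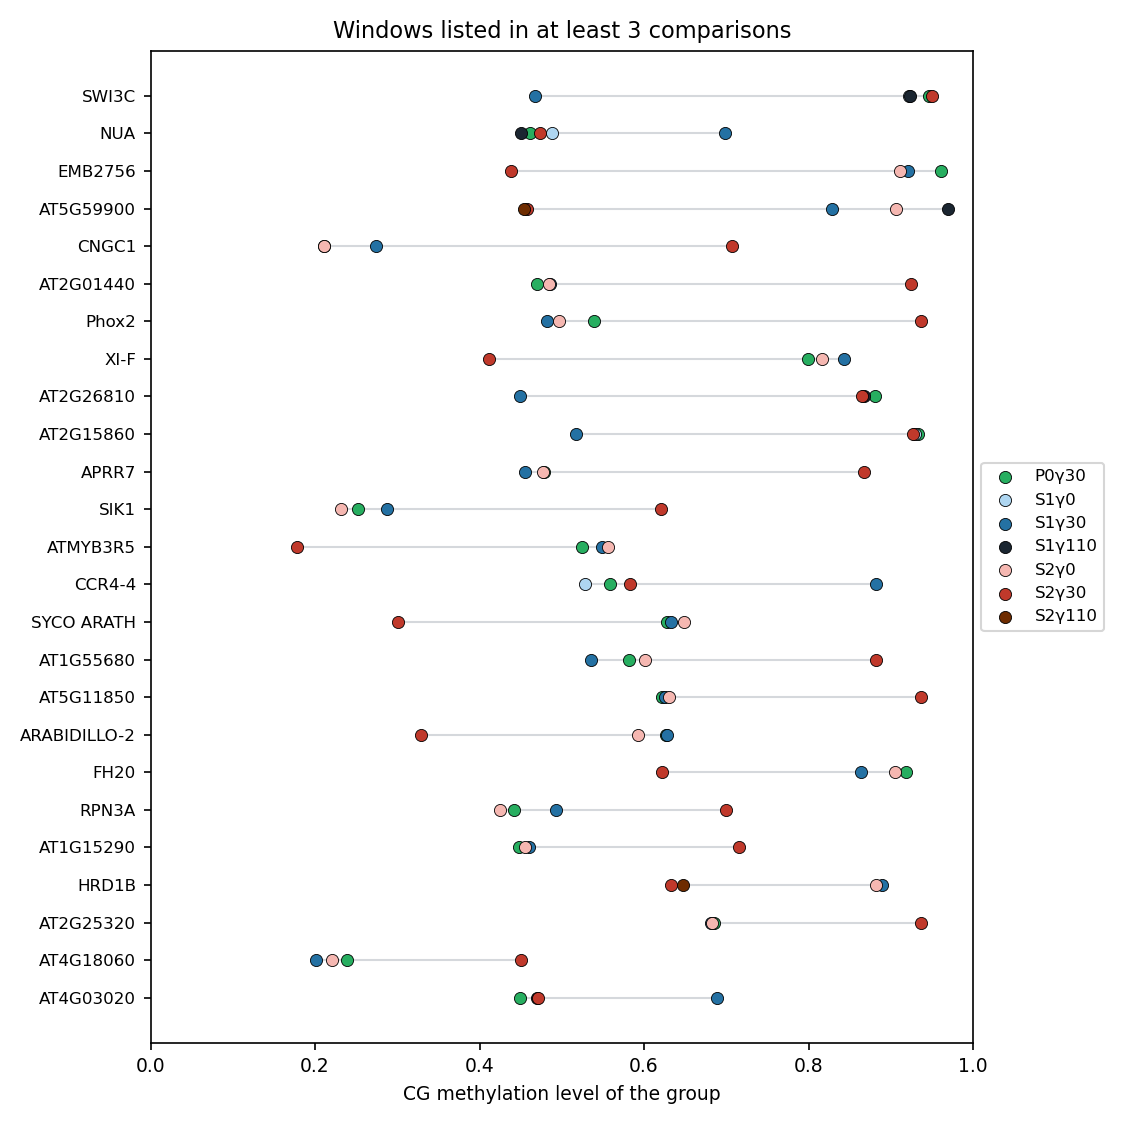
CG methylation level (horizontal axis, 0 to 1) of each group for which a level was listed, for the 25 windows listed in at least 3 comparisons (1 line per window, named by gene, 1 coloured point per group). In most lines a single point lies away from the others, such as S1γ30 at 0.468 in SWI3C and S2γ30 at 0.438 in EMB2756, where the other groups lie between 0.911 and 0.962.

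EMB2756, a transmembrane protein gene whose name marks an embryo-defective mutant, had 0.962 in P0γ30, 0.921 in S1γ30, 0.911 in S2γ0 and 0.438 in S2γ30 (chr1:12648601-12648800, 2 CG sites). CNGC1 had 0.211 in P0γ30, 0.274 in S1γ30, 0.211 in S2γ0 and 0.707 in S2γ30 (chr5:21539001-21539200, 4 CG sites). In both windows S2γ30 was the group with a different level, lower in EMB2756 and higher in CNGC1.

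The 3 windows without a group shared by all their comparisons are named here because of their number, after their values were seen. AT5G59900, a pentatricopeptide repeat protein gene, had 0.828 in S1γ30, 0.970 in S1γ110, 0.906 in S2γ0, 0.458 in S2γ30 and 0.454 in S2γ110, so both irradiated S2 groups were low. HRD1B had 0.890 in S1γ30, 0.881 in S2γ0, 0.633 in S2γ30 and 0.647 in S2γ110, again with both irradiated S2 groups at the lower level. AT1G13470 was the only window listed for γ30 against γ0 in both offspring generations. Its window of 11 CG sites had 0.866 in S1γ30 against 0.619 in S1γ0, and 0.858 in S2γ30 against 0.636 in S2γ0. Comparisons of γ30 with γ0 listed 21 windows in S1 and 153 in S2. The same overlap over all listed CG windows was not counted, so nothing is read from this single case.

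Several windows could lie in 1 gene, and they moved in the same or in opposite directions. Of the genes, 30 held 2 windows and 5 held 3, and in 18 of these 35 genes the largest difference of every window had the same sign. The largest differences of 1 gene can come from different comparisons, so this count does not show a shared direction within a comparison. Between S2γ30 and S1γ30, 24 pairs of windows lay in the same gene, of which 9 moved in the same and 15 in opposite directions. Between S2γ30 and S2γ0 there were 5 such pairs, 3 with the same direction and 2 with opposite ones. Directly neighbouring windows were found 12 times, and 7 of these pairs were listed in the same comparison, 3 with the same direction. No such counts are given here for the other listed windows, so no pattern is read from these pairs. In BGLU42, a beta-glucosidase gene, the window chr5:14544001-14544200 fell to 0.461 in S2γ30, against 0.920 in S1γ30, while the next window rose to 0.615 in S2γ30, against 0.372 in S1γ30. In the cysteinyl-tRNA synthetase gene listed as SYCO ARATH both neighbours were lower in S2γ30, with 0.301 against 0.632 in S1γ30 and 0.601 against 0.884 in S1γ30.

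The genes with 3 windows were NUA, AGO4, XI-F, AT1G10320 and AT2G46560. Besides the window shown above, NUA had 0.399 in S2γ30 against 0.154 in S1γ30 in a window at chr1:29821401-29821600, and 0.299 in S2γ30 against 0.617 in S1γ30 near the start of the gene. In XI-F, 2 neighbouring windows differed in direction. The first (chr2:13567801-13568000) had 0.818 in S2γ30, 0.438 in S1γ30 and 0.841 in S1γ0, and the next had 0.312 in S2γ30 and 0.547 in S1γ30. The third XI-F window (chr2:13569201-13569400) had 0.411 in S2γ30, against 0.844 in S1γ30, 0.817 in S2γ0 and 0.799 in P0γ30. AT1G10320 and AT2G46560 likewise held windows of either direction.

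Genes that act in DNA methylation carried 5 of the windows, in 3 of the 45 genes listed for this role, against 1.81% of all protein-coding genes with a window. They are AGO4, which binds the small interfering RNAs of RNA-directed DNA methylation, CLSY1, a remodelling protein that recruits RNA polymerase IV to its targets, and EDM2, a chromatin protein needed for full-length transcripts of the histone demethylase gene IBM1. AGO4 and CLSY1 act in RNA-directed DNA methylation, a pathway other than the copying of CG methylation by MET1. Their sequences are shown because products of these genes act on DNA methylation, with the 3 AGO4 windows numbered by coordinate. The G that opens the CLSY1 window belongs to a CG whose C lies in the previous window.
AGO4 window 1: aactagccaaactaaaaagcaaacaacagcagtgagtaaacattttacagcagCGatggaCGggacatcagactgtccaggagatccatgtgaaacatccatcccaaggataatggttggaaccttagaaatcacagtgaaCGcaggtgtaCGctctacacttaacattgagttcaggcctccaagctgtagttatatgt
AGO4 window 2: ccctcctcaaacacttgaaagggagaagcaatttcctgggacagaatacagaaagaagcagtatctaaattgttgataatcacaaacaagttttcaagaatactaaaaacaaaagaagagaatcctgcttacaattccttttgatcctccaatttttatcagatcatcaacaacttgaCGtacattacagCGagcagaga
AGO4 window 3: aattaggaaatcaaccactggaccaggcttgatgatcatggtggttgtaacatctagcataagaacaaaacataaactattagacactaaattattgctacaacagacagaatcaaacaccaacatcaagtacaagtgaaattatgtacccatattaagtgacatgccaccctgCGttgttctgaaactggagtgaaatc
CLSY1: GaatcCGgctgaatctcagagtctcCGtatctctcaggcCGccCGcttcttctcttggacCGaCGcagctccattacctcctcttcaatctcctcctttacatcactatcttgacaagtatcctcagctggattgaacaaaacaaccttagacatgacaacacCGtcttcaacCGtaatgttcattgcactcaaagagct
EDM2: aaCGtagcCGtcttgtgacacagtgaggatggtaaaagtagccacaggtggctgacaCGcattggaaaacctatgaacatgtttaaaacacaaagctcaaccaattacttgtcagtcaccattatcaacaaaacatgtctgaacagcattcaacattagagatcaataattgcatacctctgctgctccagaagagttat

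AGO4 window 1 (chr2:11538201-11538400, 4 CG sites) fell to 0.676 in S2γ30, against 0.906 in S1γ30. Window 2 (chr2:11538801-11539000, 2 CG sites) rose to 0.937 in S2γ30, against 0.555 in S1γ30. Window 3 (chr2:11540201-11540400, 1 CG site) rose to 0.902 in S2γ30, against 0.156 in S2γ0. Windows of both directions thus lay in this gene. CLSY1 (chr3:14759001-14759200, 9 CG sites) rose to 0.775 in S1γ30, against 0.497 in P0γ30. EDM2 (chr5:22452401-22452600, 3 CG sites) rose to 0.863 in S2γ30, against 0.611 in S1γ30 and 0.600 in S2γ0. All of these windows overlapped coding exons. SUVH9, a protein of the same RNA-directed pathway that was not on the list and was picked after its values were seen, had 0.671 in S2γ30 against 0.879 in S2γ0.

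Genes matched by DNA repair terms in their descriptions carried 5 windows in 5 of 159 genes (3.14%). By their largest difference 1 was higher and 4 were lower in S2γ30. They are RECQL4B, a RecQ helicase, RAD23C, of a family of nucleotide excision repair proteins, PMS1, a mismatch repair protein of the MutL family, AT4G25290, annotated as a DNA photolyase, and ATDPB2, a subunit of DNA polymerase epsilon. Their windows are shown because these are genes of the response to DNA damage. The level of a window does not tell which of its CG sites changed.
RECQL4B: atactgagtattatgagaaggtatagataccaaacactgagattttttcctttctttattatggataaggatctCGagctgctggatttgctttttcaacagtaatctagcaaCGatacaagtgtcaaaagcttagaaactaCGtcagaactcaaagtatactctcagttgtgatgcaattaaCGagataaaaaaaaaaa
RAD23C: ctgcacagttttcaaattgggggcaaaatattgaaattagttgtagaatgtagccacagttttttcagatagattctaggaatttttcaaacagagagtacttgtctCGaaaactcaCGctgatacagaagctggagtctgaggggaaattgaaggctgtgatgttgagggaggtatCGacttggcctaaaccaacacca
PMS1: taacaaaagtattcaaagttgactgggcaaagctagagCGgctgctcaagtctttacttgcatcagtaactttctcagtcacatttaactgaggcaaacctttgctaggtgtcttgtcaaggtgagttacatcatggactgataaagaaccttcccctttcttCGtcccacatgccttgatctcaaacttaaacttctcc
AT4G25290: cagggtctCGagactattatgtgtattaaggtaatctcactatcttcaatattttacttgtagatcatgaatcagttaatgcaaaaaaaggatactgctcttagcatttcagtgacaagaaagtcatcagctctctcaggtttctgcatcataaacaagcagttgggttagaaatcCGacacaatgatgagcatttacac
ATDPB2: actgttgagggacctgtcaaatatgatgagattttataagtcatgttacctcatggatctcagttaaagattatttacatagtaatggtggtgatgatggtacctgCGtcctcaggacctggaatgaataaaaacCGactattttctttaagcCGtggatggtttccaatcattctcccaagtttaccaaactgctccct

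The photolyase gene AT4G25290 (chr4:12942001-12942200) had 0.860 in S2γ30, against 0.470 in S1γ30 and 0.494 in S2γ0. PMS1 (chr4:1078601-1078800) fell to 0.491 in S2γ30, against 0.879 in S1γ30. With 2 CG sites each, these windows moved between the same pair of steps in opposite directions. ATDPB2 (chr5:7331801-7332000, 3 CG sites) fell to 0.299 in S2γ30, against 0.591 in S1γ30, and RAD23C (chr3:534801-535000, 3 CG sites) to 0.316, against 0.603. RECQL4B (chr1:22435801-22436000, 4 CG sites) had 0.187 in S2γ30, against 0.435 in S1γ30 and 0.414 in P0γ30.

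The terms missed other repair genes whose RefSeq descriptions lack them, and 4 of these with a window were picked by their known roles after the values were seen. Levels were higher in S2γ30 in TDP1, which removes proteins bound to DNA ends (0.871, against 0.586 in S1γ30), in DDB1B, a damaged DNA binding protein (0.919, against 0.626), and in PARP1, a poly(ADP-ribose) polymerase (0.903, against 0.703). UVH1, the endonuclease subunit of nucleotide excision repair, had 0.447 in S2γ30 against 0.687 in S2γ0. The balance of 1 higher and 4 lower thus describes the matched genes alone. As these 4 genes were picked after their values were seen, the balance over all repair genes is not known here.

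The remaining genes were spread over many functions. Genes for chromatin proteins held a window in 10 of 292 cases (3.42%). SWI3C and CHR34, a chromatin remodelling protein with 0.711 in S2γ30 against 0.276 in S1γ30, had the largest differences there. By the largest difference, 8 of the 11 chromatin windows were higher and 3 lower in the later or more irradiated group. Such counts pool different comparisons, so no direction is read from them. SWI3C counts as higher through S2γ30 against S1γ30, although S1γ30 was lower than P0γ30 and S1γ0. Genes whose description names a kinase held a window in 41 of 1388 cases (2.95%), with 20 of 42 windows higher and 22 lower in the same pooled count. Besides WAKL20 they include NET1A, an actin-binding protein that is described as interacting with kinases and is not one itself, with 0.940 in S2γ30 against 0.385 in S1γ30.

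Pentatricopeptide and tetratricopeptide repeat proteins, of which many act on organelle RNA, held windows in 18 of 581 genes (3.10%). AT5G14080 of this list had 0.900 in S2γ30, against 0.389 in S1γ30. Genes of vesicle traffic and the cytoskeleton held windows in 14 of 486 cases (2.88%), with XI-F and FIM4, an actin-bundling fimbrin (0.868 in S2γ30, against 0.460 in S1γ30), at the top. Among membrane transport genes, with 13 of 764 (1.70%), ECA2, a calcium pump of the endoplasmic reticulum, had 0.931 in S2γ30, against 0.376 in S1γ30 and 0.496 in S2γ0, and CNGC1 came next.

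Words for ubiquitin and the proteasome matched 1510 genes, of which 19 held a window, and words for transcription factors matched 1595, of which 19 held a window. These counts do not stand for the gene classes. The first words also matched FTSZ1, a plastid division protein, and missed the proteasome subunits RPN3A and RPT4A, and the second matched FYVE zinc finger proteins and missed ABF2, ARF4, ARF7 and ARF19. RPT4A had 0.197 in S2γ30, against 0.563 in S1γ30, where S1γ0 had 0.296. Translation and tRNA terms matched 685 genes, 8 of them with a window, and terms for carbohydrates and the cell wall 1274, 6 of them with a window. None of the 119 genes described with splicing terms held a window, but SMU2, a splicing protein without such a term in its description, had 0.478 in S2γ30 against 0.228 in S1γ30. In the ubiquitin list UCH3, a ubiquitin hydrolase, had 0.866 in S2γ30 against 0.417 in S1γ30, and AT3G09760, a RING/U-box protein gene, had 0.944 in S2γ30 against 0.518 in S2γ0. BHLH77 had 0.363 in S2γ30 against 0.773 in S1γ30, and AT2G05160, a zinc finger protein gene, had 0.536 in S2γ30 against 0.132 in S2γ0.

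The arginyl-tRNA synthetase gene emb1027 held 2 windows that differed in direction, one with 0.469 in S2γ30 against 0.911 in S1γ30 and the other with 0.498 in S2γ30 against 0.120 in S2γ0. PAE8, a pectin acetylesterase, had 0.875 in S2γ30 against 0.233 in S1γ30. As most gene lists were matched by words in the gene descriptions, which miss some genes and catch others, and the lists differ in gene length, no list is read as holding more or fewer windows than another.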

How the data were processed

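Reads of 45 whole genome bisulfite libraries were mapped by the authors to TAIR10.31 with CLC Genomics Workbench, and differential regions were called in windows of 200 bp for each sequence context. The deposited methylation levels are fractions per group of 5 samples. The authors corrected p-values with R 3.5.0 and added TEs with bedtools. Their p-values, adjusted p-values and methylation differences hold the findings of the study and were not used, and differences were recomputed as the later generation minus the earlier, or the higher dose rate minus the lower. Of 18 tables, 10 held rows and 8 a header line alone. In 722 cases a window and group occurred in several tables, with identical levels.

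Windows were counted once per comparison (3273 from 3353 CG entries). CG sites, exons, strands and gene descriptions came from RefSeq TAIR10.1. No listed CG window lacked a CG there, against 4.74% of all genome windows, and the gene named in the table was found at 83.5% of the 544 windows by name or synonym. The others were assigned to the overlapping gene. A CG site counted if at least 1 of its bases lay in the window. Printed coordinates are those of the authors.

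The rule, the gene lists and the bounds of the level steps were chosen with earlier results of these data known. Genes named are the 3 largest gains and losses per comparison, the 5 windows listed most often, the genes with the most windows, all DNA methylation and DNA repair members, the 2 largest differences of every other list, and the windows nearest to the limits. Those named outside this rule (neighbouring windows, HRD1B, AT1G13470 and genes that the word lists missed among them) were chosen after their values were seen. Counting and overlaps were tested on simulated data. Alternatives were minimum levels of 0.05 and 0.2, the minimum over the compared groups, genes in place of windows, at least 3 CG sites, annotated gene bodies and a difference above 0.3. Python 3.11.15, NumPy 2.4.6 and SciPy 1.17.1 were used.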

Additional observations from a re-analysis of the deposited data

How the results depend on the processing

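Of 95 alternative values, 67 stayed within 1.5 times the count reported, within the 95% binomial confidence interval (Wilson) of the share or at the same median, and 28 did not. Gains outnumbered losses in all 5 comparisons as reported and in 32 of 35 alternatives. The alternatives share many windows and are not independent, so nothing is read from this majority. Among all listed CG windows, the share higher in S2γ30 was 56% against S1γ30, 59.4% against S2γ0 and 62.5% against P0γ30. The share higher in S1γ30 was 49.5% against P0γ30 and 51.2% against S1γ0. Losses outnumbered gains for S1γ30 against P0γ30 at a difference above 0.3 (5 higher, 10 lower) and for S2γ30 against P0γ30 with annotated gene bodies (44 higher, 46 lower), and both were equal for S1γ30 against S1γ0 at a difference above 0.3 (4 each). Gene bodies taken from the RefSeq annotation gave 1063 windows in place of 544. Windows higher in the later or more irradiated group then numbered 48 (S1γ30 against P0γ30), 44 (S2γ30 against P0γ30), 432 (S2γ30 against S1γ30), 34 (S1γ30 against S1γ0) and 164 (S2γ30 against S2γ0), and lower ones 36, 46, 407, 13 and 135 in the same order. The listed class leaves out most plus-strand genes, which this setting adds. A difference above 0.3 left 196 windows, with 5, 14, 89, 4 and 36 higher and 10, 8, 63, 4 and 25 lower in that order, a median difference of 0.373 and a median of 3 CG sites. Windows with at least 3 CG sites left 2 losses of S1γ30 against S1γ0 in place of 5. The median difference of 0.270 was 0.273 with a minimum level of 0.05, 0.267 with 0.2, 0.270 with the minimum over the compared groups, 0.260 with at least 3 CG sites and 0.272 with annotated gene bodies. Counting genes gives no median, so none is given for that setting.

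No paired analysis was possible because the tables hold 1 level per group and no values per sample, and leaving out a replicate was not possible either. The depth per window is unknown here.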

Other observations

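Of the genes with a window that stayed methylated in every listed group, 34 also held a listed gene-body window outside TEs that fell under 0.1 in some group. Over all 544 windows, 207 reached a level of 0.8 or more in some group, and 6 combined such a level with a lowest level under 0.2. A difference above 0.5 was seen in 24 of the 544 windows (4.41%), against 60 of the 417 gene-body windows that fell under 0.1 (14.4%). The limit of 0.1 shapes this contrast too, since a window that stays above it has less room for a large difference.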
